A study of Mus musculus with 24 samples.

Results

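The T-box factor Tbx3 and 6 related mesenchymal T-box genes, Tbx2, Tbx4, Tbx5, Tbx15, Tbx18 and Tbx20, were followed over RNA-seq libraries of 3T3-immortalized mouse embryonic fibroblasts (MEFs). The 7 genes were chosen by name from 55471 annotated genes, with their levels in these libraries already known. Their own levels and differences are therefore given as a description, without a p-value for any of them. Counts of them past a threshold are listed beside the share of all genes, and nothing is read from these counts. Of the 7 genes, 4 (Tbx3, Tbx15, Tbx18 and Tbx20) passed the filter on low counts, as did 17522 genes in all, and 3 (Tbx2, Tbx4 and Tbx5) did not. The 24 libraries fell into 8 groups of 3. Wild-type (WT) MEFs, MEFs deleted for Lkb1 (Lkb1-/-, called KO) and 2 clones of Lkb1-/- MEFs that also lack Crtc2 (called A1 and A2) were each left untreated or given IL-1β for 6 h. Both treatments of a genotype thus share its deletion, and A1 and A2 both carry the Lkb1 deletion of the KO cells. Each double-knockout group came from a single clone obtained by CRISPR editing and sorting, so clone and Crtc2 genotype cannot be told apart within it. WT and KO MEFs are separate immortalized lines, so line and Lkb1 genotype cannot be told apart either. The labels do not say that the 3 libraries of a group came from separate cultures, and p-values therefore measure the spread between these libraries only.

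T-box factors bind DNA through a shared domain, the T-box, and set the identity of limb, heart and connective tissue cells in the embryo. TBX2 and TBX3 act mainly as repressors and are known for their part in limb, mammary gland and cardiac conduction development and for holding down cell cycle inhibitors. TBX4 and TBX5 drive hindlimb and forelimb outgrowth, TBX15 and TBX18 pattern the limb skeleton, ureter and dermal mesenchyme, and TBX20 is a cardiac factor. LKB1 is a kinase that keeps the CREB coactivator CRTC2 phosphorylated and out of the nucleus through the salt-inducible kinases.

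Promoter sequence from RefSeq (build GRCm38.p6, 250 bases before to 50 bases after the start) matched 3 of the 7 genes, Tbx4, Tbx18 and Tbx20. Those of Tbx18 and Tbx20 are shown because both genes differed between WT and KO libraries at 2 very different levels and because the Tbx18 window is also covered by a transcript of the opposite strand, described below. Capitals mark the CREB-site core TGACG, and no other searched motif was present. The Tbx18 window lies at chr9:87731211-87731510 on the minus strand and that of Tbx20 at chr9:24774254-24774553, also on the minus strand.
Tbx18: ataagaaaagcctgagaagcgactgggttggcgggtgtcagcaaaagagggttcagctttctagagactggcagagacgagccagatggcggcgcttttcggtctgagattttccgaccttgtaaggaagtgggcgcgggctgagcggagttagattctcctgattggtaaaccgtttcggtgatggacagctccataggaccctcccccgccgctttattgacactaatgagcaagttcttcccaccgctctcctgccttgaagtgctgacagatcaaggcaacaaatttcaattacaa
Tbx20: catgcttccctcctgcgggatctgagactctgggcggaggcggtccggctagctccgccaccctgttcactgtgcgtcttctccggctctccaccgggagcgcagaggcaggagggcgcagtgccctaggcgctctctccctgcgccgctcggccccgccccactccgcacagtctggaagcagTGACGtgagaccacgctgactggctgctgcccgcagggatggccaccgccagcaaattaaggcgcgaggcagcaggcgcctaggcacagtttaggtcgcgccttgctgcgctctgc
The full CREB site TGACGTCA, the core TGACG and the T-box site GGTGTGA were searched on both strands, and the core lies within the full site. In Tbx20 the core began 66 bases before the start. The Tbx4 and Tbx18 windows held none of these letters. Of 32851 promoters of the same length, 1.79% held the full site, 20.8% the core and 3.98% the T-box site. The Tbx20 window had 68.3% G and C, that of Tbx18 51.7%, and the median promoter 52.7%. Tbx2, Tbx3, Tbx5 and Tbx15 are the other 4 genes.

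The libraries held between 38842901 and 48594394 read pairs assigned to genes. The targeted Lkb1 gene (Stk11) was at 84.6 to 87.9 CPM (counts scaled to equal library totals, per megaread) in untreated WT libraries and at 16.3 to 18.7 in untreated KO libraries, and Crtc2 was at 79.1 to 82.3 CPM in untreated KO, 41.1 to 45.2 in A1 and 48.9 to 50.6 in A2 libraries. CPM values are scaled by the trimmed mean of M values (TMM) throughout. The summed level of 11 fibroblast markers was 5717 to 10398 CPM, 9 of the 11 passed the filter, and Thy1 was at 0 in the WT libraries of both treatments. This sum was 9428 to 10398 CPM in untreated A1 and 7110 to 8185 in untreated KO libraries, without overlap. In untreated WT (6771 to 8297 CPM) and A2 (6471 to 8932 CPM) it overlapped with KO. The sum of 6 cardiomyocyte markers, the cell type for which TBX20 is best known, was between 0.340 and 3.71 CPM in all libraries. The share of lines assigned to no gene was 29.9 to 34.4% in replicate 1 libraries and 26.7 to 30.0% in replicates 2 and 3, and within each group replicate 1 had the highest share.

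Tbx3 (chromosome 5, 119670669 to 119684724, plus strand, GRCm38) was expressed in every library, and its level after IL-1β differed between the WT and KO lines and between the clones. In WT cells the 3 untreated libraries held 26.6, 28.5 and 27.4 CPM and the 3 IL-1β libraries 25.8, 23.8 and 23.4 CPM. In KO cells the untreated libraries held 33.3, 32.2 and 34.1 CPM and the IL-1β libraries 80.7, 77.9 and 89.0 CPM. Every IL-1β library thus lay above the untreated ones in KO cells and below them in WT cells.

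Clone A1 held 16.0, 17.6 and 19.1 CPM of Tbx3 without and 27.4, 25.4 and 29.0 CPM with IL-1β. Clone A2 held 22.9, 20.1 and 21.1 CPM without and 54.3, 45.6 and 55.1 CPM with IL-1β. Both clones were below the KO cells at either treatment, with no overlap between groups, and in both clones every treated library lay above every untreated one.

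**Figure D1:**
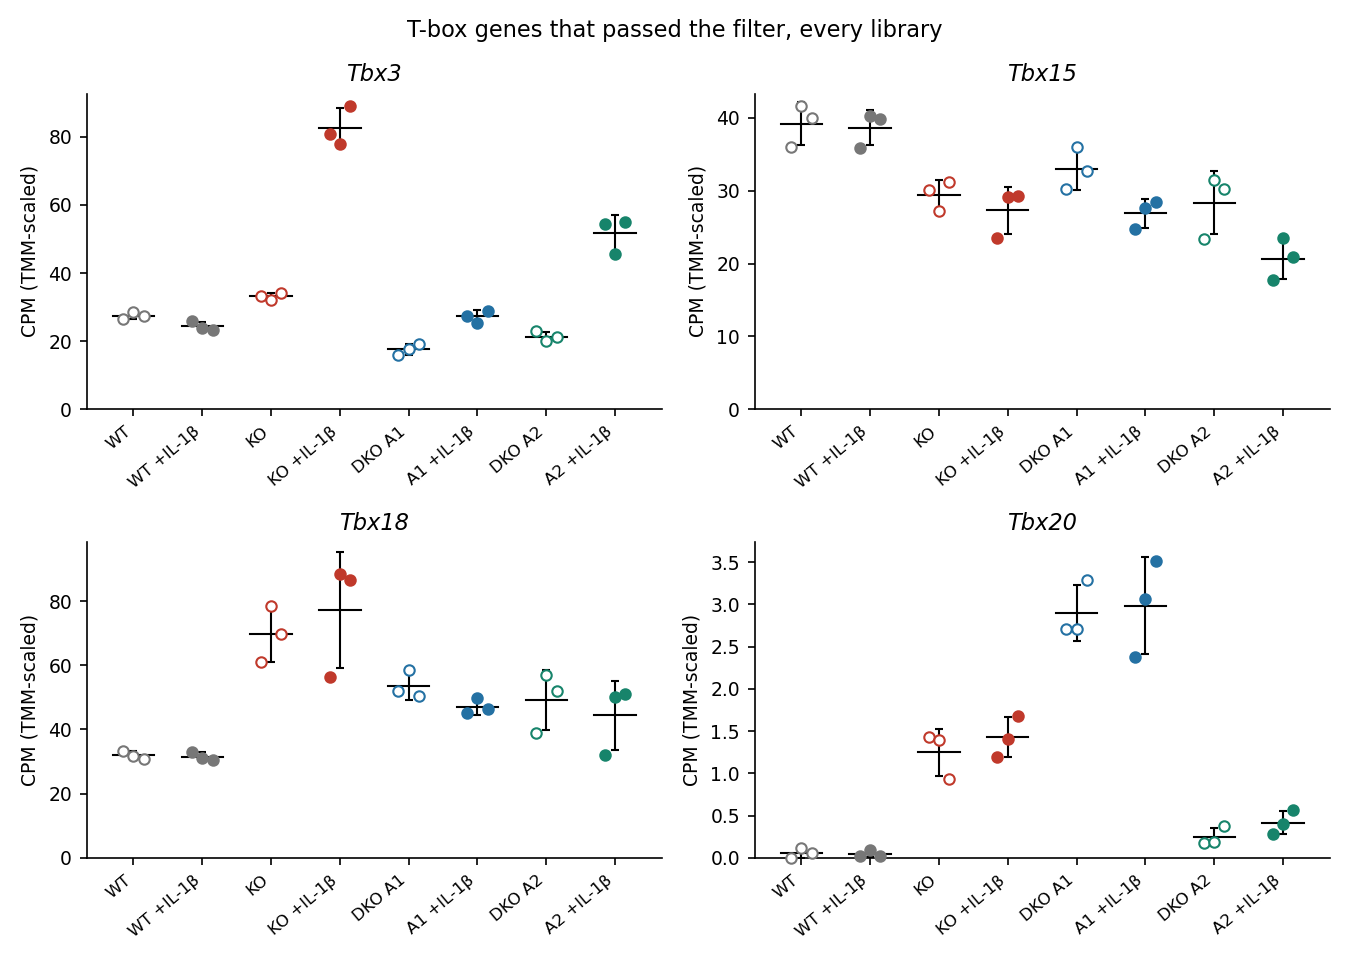
Level of Tbx3, Tbx15, Tbx18 and Tbx20 in CPM (linear axes from 0) in each of 24 libraries, by genotype (colour) and treatment (open, untreated; filled, IL-1β), with lines at the mean and bars for the SD over 3 libraries. Tbx3 is highest in KO cells given IL-1β (77.9 to 89.0 CPM), and Tbx20 stays at or below 3.52 CPM in all libraries.

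On the log2 scale the fitted difference of Tbx3 between IL-1β and untreated libraries was −0.18 ± 0.08 (SE) in WT, 1.31 ± 0.08 in KO, 0.63 ± 0.08 in A1 and 1.27 ± 0.08 in A2 cells (3 libraries against 3 in each). These are a 2.49-fold higher level in KO, 1.55-fold in A1 and 2.42-fold in A2 cells. The difference between KO and WT cells was 0.27 ± 0.08 without and 1.76 ± 0.08 with IL-1β, a fold of 1.21 and 3.39. A1 lay 0.92 ± 0.08 below KO on the log2 scale without IL-1β (log2 difference −0.92) and further below with it (−1.60 ± 0.08). A2 lay below KO by about the same log2 difference without (−0.63 ± 0.08) and with IL-1β (−0.68 ± 0.08). The response in KO cells exceeded that in WT cells by 1.49 ± 0.12, the response in A1 was lower than in KO cells (−0.68 ± 0.12), and the response in A2 differed from that in KO cells by −0.04 ± 0.11 (95% interval −0.27 to 0.18).

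Ordered by mean level, the Tbx3 groups ran from untreated A1 (17.6 ± 1.54 CPM, SD, n = 3), untreated A2 (21.4 ± 1.44), WT with IL-1β (24.3 ± 1.32), A1 with IL-1β (27.3 ± 1.77) and untreated WT (27.5 ± 0.945) to untreated KO (33.2 ± 0.965), A2 with IL-1β (51.7 ± 5.29) and KO with IL-1β (82.6 ± 5.79). Only the neighbours A1 with IL-1β and WT with IL-1β, and A1 with IL-1β and untreated WT, overlapped in this order. The KO to WT difference without IL-1β was the smallest of the fitted genotype differences, which compare KO with WT, clones with KO and the clones. The clones were not fitted against WT. This KO to WT difference moved to 0.35 with upper quartile scaling, to 0.21 with unstranded counts or without WT replicate 3 and to 0.20 without KO replicate 1 or replicate 3.

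Tbx18 (chromosome 9, 87702800 to 87731260, minus strand), a factor of ureter and epicardial mesenchyme, was higher in KO than in WT cells at either treatment. Its untreated WT libraries held 33.3, 31.7 and 30.8 CPM and the untreated KO libraries 60.9, 78.4 and 69.8 CPM. With IL-1β the WT libraries held 33.1, 31.0 and 30.6 CPM and the KO libraries 56.3, 88.4 and 86.7 CPM. KO and WT libraries did not overlap, while treated and untreated libraries did in both genotypes.

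In the clones most libraries lay between the WT and KO levels, apart from 1 treated A2 library (32.0 CPM) within the WT range. Untreated A1 held 51.9, 58.6 and 50.4 CPM of Tbx18 and untreated A2 38.7, 56.9 and 52.0 CPM, and with IL-1β the values were 45.0, 49.9 and 46.3 CPM in A1 and 32.0, 50.1 and 51.2 CPM in A2. In KO and A2 cells replicate 1 was the lowest library at both treatments. The log2 difference between KO and WT was 1.13 ± 0.17 without IL-1β and 1.29 ± 0.17 with it, and 1.25 and 1.51 without replicate 1 of every group. A1 and A2 differed from untreated KO by −0.38 ± 0.17 and −0.50 ± 0.17, and from KO with IL-1β by −0.71 ± 0.17 and −0.80 ± 0.17. The IL-1β differences were −0.02 in WT, 0.15 in KO, −0.19 in A1 and −0.15 in A2 cells, each with an SE of 0.17.

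Tbx15 (chromosome 3, 99240381 to 99354259, plus strand), a factor of dermal and skeletal mesenchyme, went the other way between WT and KO. The untreated WT libraries held 36.0, 41.7 and 39.9 CPM and the untreated KO libraries 30.0, 27.2 and 31.2 CPM, with no overlap (log2 difference −0.41 ± 0.12). With IL-1β the values were 35.8, 40.3 and 39.8 CPM in WT and 23.5, 29.1 and 29.2 CPM in KO cells (−0.50 ± 0.12). KO cells thus had less Tbx15 and more Tbx18 than WT cells at either treatment.

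In the clones Tbx15 was at 30.2, 36.0 and 32.7 CPM in untreated A1 and at 23.4, 31.4 and 30.2 CPM in untreated A2 cells, overlapping with KO. With IL-1β it was at 24.7, 27.6 and 28.4 CPM in A1 and at 17.7, 23.5 and 20.9 CPM in A2. Treated A1 overlapped with treated KO (log2 difference −0.02 ± 0.12). Treated A2 lay below treated KO (−0.40 ± 0.12), with the highest A2 library just under the lowest KO library. The IL-1β difference was −0.29 ± 0.12 in A1 and −0.45 ± 0.12 in A2, against −0.02 ± 0.12 in WT and −0.11 ± 0.12 in KO cells. The highest treated A2 library lay just above the lowest untreated A2 library.

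Tbx20 (chromosome 9, 24718138 to 24774303, minus strand), the cardiac member whose promoter is printed above, was the least expressed of the 4. Its untreated WT libraries held 0, 0.115 and 0.0522 CPM, which are 0, 5 and 2 read pairs, and the WT libraries given IL-1β held 1, 4 and 1 read pairs. KO libraries held 1.43, 1.39 and 0.928 CPM (63, 60 and 39 read pairs) without and 1.20, 1.41 and 1.68 CPM with IL-1β.

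The clones departed from KO cells in opposite directions for Tbx20. A1 held 2.71, 2.71 and 3.29 CPM without and 2.38, 3.06 and 3.52 CPM with IL-1β, all above the KO libraries. A2 held 0.181, 0.185 and 0.374 CPM without and 0.287, 0.404 and 0.563 CPM with IL-1β, all below KO and above WT. The log2 difference from untreated KO was 1.21 ± 0.31 in A1 and −2.33 ± 0.38 in A2, and that of A2 against untreated A1 was −3.54 ± 0.37. The difference between untreated KO and WT, 4.43 ± 0.49, rested on few WT reads: it was 3.83 without WT replicate 1, 5.53 without WT replicate 2 and 3.72 without replicate 1 of every group. Read pairs of treated and untreated libraries overlapped within each genotype.

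Tbx2, Tbx4 and Tbx5 were at or near the limit of detection. Tbx2, the closest relative of Tbx3, had 0 to 7 read pairs in a library: 4, 4 and 4 in untreated WT, 0, 1 and 0 in untreated KO, 3, 0 and 2 in KO with IL-1β and 4, 7 and 4 in A1 with IL-1β. Tbx4 had 2 read pairs in 1 untreated A1 library and 1 and 2 in untreated A2 libraries, and none elsewhere. Tbx5 had at most 1 read pair in a library. A count of 0 allows up to 3 read pairs, or 0.0617 to 0.0772 CPM at these depths (counting error only), so differences between groups were not detectable for Tbx4 and Tbx5.

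Levels of different genes can be compared only per length of exon. In untreated WT cells Tbx15 stood highest at 10.5 ± 0.78 CPM per kilobase (SD, n = 3), before Tbx18 at 6.76 ± 0.27 and Tbx3 at 4.15 ± 0.14. In KO cells given IL-1β the order was Tbx18 at 16.3 ± 3.8, Tbx3 at 12.5 ± 0.87 and Tbx15 at 7.28 ± 0.87 CPM per kilobase, with Tbx20 at 0.119 ± 0.020. In these treated KO libraries the values of Tbx18 and Tbx3 overlapped, replicate 1 had more Tbx3 than Tbx18 per length, and their order turned when the longest transcript was used as the length, so it is not settled.

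**Figure D2:**
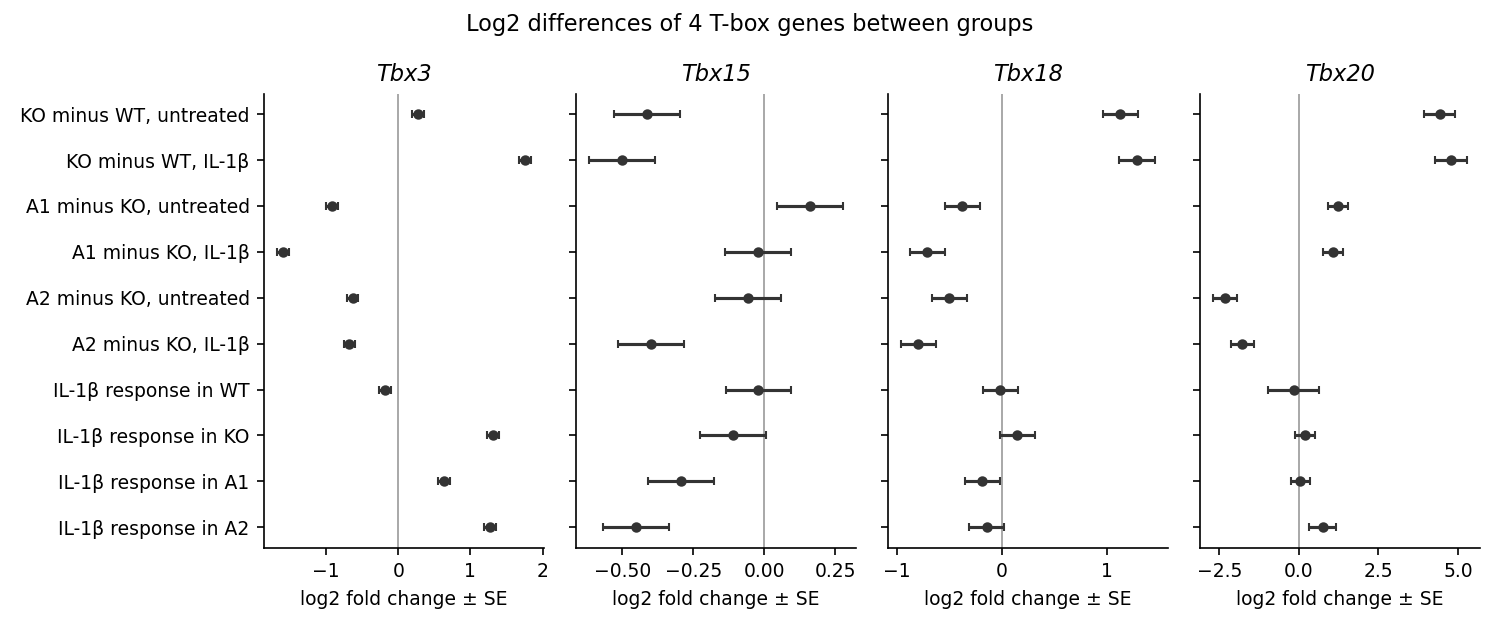
Fitted log2 fold change (x axes, each with its own range; bars are SE, 3 libraries against 3) of Tbx3, Tbx15, Tbx18 and Tbx20 in 10 comparisons; KO is Lkb1-/-, A1 and A2 are the Lkb1/Crtc2 double-knockout clones. The IL-1β response of Tbx3 runs from −0.18 in WT to 1.31 in KO, and Tbx20 lies above KO in A1 (1.21) and below KO in A2 (−2.33).

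Counts of the 4 measured T-box genes past an edgeR false discovery rate (FDR) of 0.05 are set here beside the share of all 17522 genes past it, without anything being read from them, since the genes were selected with these contrasts known. Between KO and WT cells 4 of 4 passed (3 higher, 1 lower) without IL-1β, where 55.9% of all genes did, and 4 of 4 with IL-1β, where 57.4% did. Between A1 and KO 2 of 4 (35.3% of all genes) and 3 of 4 with IL-1β (36.7%) passed, and between A2 and KO 3 of 4 (32.3%) and 4 of 4 with IL-1β (32.8%). Between the clones 2 of 4 passed without (32.5%) and 3 of 4 with IL-1β (30.7%). For the IL-1β response, 0 of 4 passed in WT (2.26% of all genes), 1 of 4 in KO (4.74%), 1 of 4 in A1 (1.99%) and 2 of 4 in A2 (5.68%). For the difference of responses, 1 of 4 passed between KO and WT (0.245%) and 1 of 4 between A1 and KO (0.0285%). The last count was 0 with upper quartile scaling, with the compared groups alone, without replicate 1 of every group and without any single KO or A1 library other than untreated A1 replicate 1 or treated A1 replicate 3, while the fitted Tbx3 difference was −0.77 to −0.62 over 23 settings. The KO groups enter both the KO to WT and the clone to KO comparisons, and the values of these comparisons are therefore not independent.

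Sequence shared with other genes was counted, since it limits how reads can be assigned. No stretch of 50 bases, the read length, was shared between transcripts of the 7 genes. Stretches shared with any other gene made up 1.01% of Tbx3, all with Tbx3os1, a transcript of the opposite strand that overlaps its first bases, and 18.3% of Tbx18, of which 836 of 852 were shared with D030062O11Rik on the opposite strand. The counts used here are stranded, with 95.47 to 95.95% of assigned pairs on the expected strand. In untreated libraries the share of pairs on the opposite strand was 0.617% ± 0.369 in KO and 0.578% ± 0.169 in WT for Tbx3 (exact permutation test, two-sided, p = 1), 0.286% ± 0.151 and 0.162% ± 0.036 for Tbx15 (p = 0.3, exact), and 0.463% ± 0.122 and 0.658% ± 0.0716 for Tbx18 (p = 0.1, exact; 0.3 after Benjamini-Hochberg adjustment over 3 tests). The smallest p that 3 against 3 libraries allow is 0.1, so none of these 3 tests could pass 0.05 and nothing is read from them. Tbx3os1 itself had 0 to 17 read pairs in a library, with 2, 11 and 17 in KO cells given IL-1β, and did not pass the filter.

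Genes within 200 kb of the members were examined next, since they share the chromosomal neighbourhood. No non-member neighbour of Tbx3, Tbx5 or Tbx20 passed the filter. D030062O11Rik, which spans the Tbx18 promoter printed above on the opposite strand (chromosome 9, 87729285 to 87732090), held 1.14 to 1.38 CPM in untreated WT and 0.679 to 1.11 CPM in untreated KO libraries, a log2 difference of −0.36 ± 0.30 that did not pass the test (edgeR FDR = 0.331). Tbx18 was higher in KO over the same libraries. Wars2, a mitochondrial tryptophanyl-tRNA synthetase that lies 1.2 kb from Tbx15, was lower in KO than in WT (24.2 to 25.8 against 29.4 to 32.1 CPM; −0.30 ± 0.07, edgeR FDR = 0.000601), the direction of Tbx15, and its untreated difference between A2 and KO (−0.25 ± 0.07, edgeR FDR = 0.00623) had an FDR of 0.0603 without A2 replicate 2 (−0.18), 0.0667 with no filter and 0.0532 with the compared groups alone. Between A1 and untreated KO the value of Wars2 went the other way (0.15 ± 0.07, edgeR FDR = 0.0817, and 0.0488 with the block). Near Tbx4, the DNA helicase gene Brip1 was higher than in KO in A1 (0.41 ± 0.10, edgeR FDR = 0.00187) and A2 (0.62 ± 0.10, edgeR FDR = 4.18e-05). Bcas3, which lies beside Tbx2, was higher in A2 than in KO (0.79 ± 0.19, edgeR FDR = 0.00297). Bcas3 did not pass between A1 and KO (0.25 ± 0.19, edgeR FDR = 0.343), but did with the block on replicate number (0.26, edgeR FDR = 0.016). The pseudogene M6pr-ps and the intronic transcripts Gm43024 and Gm42717 near Tbx15 passed in none of these 3 untreated comparisons (edgeR FDR 0.182 to 0.922).

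Beyond the members, 5 lists of 56 genes with a known link to T-box factors were examined, of which 33 passed the filter. The lists were also chosen with earlier results of these data known. Their counts and FDR values are therefore a description, and nothing is read from their shares beside those of all genes. In untreated cells 25 of these 33 differed between KO and WT (14 higher, 11 lower; 75.8% against 55.9% of all genes), with a median log2 difference of 0.25 against 0.04 over all genes. Against untreated KO, 18 of 33 differed in A1 (12 higher, 6 lower; 35.3% of all genes; median 0.11 against 0.02) and 21 in A2 (12 higher, 9 lower; 32.3% of all genes; median 0.13 against 0.02). In both clones 9 genes were higher than in KO (Bmp2, Bmp4, Col1a2, Fgf10, Gata4, Mef2c, Msx2, Tcf7 and Wnt5a), 4 were lower (Foxc2, Gli1, Msx1 and Ptch1), and Gja1 was higher in A1 and lower in A2. With the block on replicate number 24 of 33 differed in A1 and 22 in A2, where 8424 and 8042 of all 17522 genes did. Lef1 (0.51, edgeR FDR = 0.000624) and Gli3 (0.16, edgeR FDR = 0.00801) were then also called higher and Ndrg1 lower (−0.18, edgeR FDR = 0.04) in A1, as they were in A2, and Cdkn2a higher in A2, as it was in A1. The clones are both compared with the same KO libraries. The share of all genes called alike in both clones is not given here, so nothing is read from the genes called alike.

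Of 10 other T-box genes 4 passed the filter, at low levels apart from Mga. Eomes, a factor of mesoderm and lymphocytes, was at 1.05 to 1.83 CPM in untreated WT and at 0.113 to 0.357 in KO libraries (−2.49 ± 0.55, edgeR FDR = 0.000519). Tbx6, a factor of presomitic mesoderm, was higher in KO (0.232 to 0.294 against 0.0522 to 0.0921 CPM). Its fitted difference was 1.74 ± 0.38 (edgeR FDR = 0.00049), but it was not called with unstranded counts (0.10, FDR = 0.82). The WT values of Tbx6 lay around the floor of 0.0617 to 0.0772 CPM, so this difference rests on few WT reads. Between the clones and KO 0 of 4 passed in A1 (edgeR; 0 at an unadjusted p under 0.05; 35.3% of all genes) and 1 in A2 (32.3% of all genes), Mga, a T-box protein that binds MAX (−0.26 ± 0.08, edgeR FDR = 0.0184, and 0.0767 without KO replicate 2 or 0.104 without A2 replicate 3). It is named after its values were seen.

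Of 11 measured mesenchymal and cardiac transcription factors known to work beside T-box proteins, 8 differed between untreated KO and WT (3 higher, 5 lower), where 55.9% of all genes did. Gata4, a cardiac and mesodermal factor, had 0 to 2 read pairs in each untreated WT library and 1440 to 1518 in each KO library, or 32.6 to 35.7 CPM (edgeR FDR = 2.45e-17). Its close relative Gata6 showed the reverse, with 608 to 696 read pairs in WT and 0 to 2 in KO libraries (edgeR FDR = 2.09e-12). The mesothelial and kidney factor Wt1 had at most 1 read pair in untreated WT and 71 to 110 in KO libraries (edgeR FDR = 7.14e-09). No fold is given for these genes, since a group held next to no reads.

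Of these 3 factors, Gata4 was called in both clones against untreated KO, and Gata6 and Wt1 in A1. Gata4 was higher in A1 (0.56 ± 0.12, edgeR FDR = 0.00112) and A2 (0.54 ± 0.12, edgeR FDR = 0.00198). Wt1 had no read pair in any untreated A1 library, at least 29.3-fold lower than in KO by a floor of 3 read pairs per library (edgeR FDR = 4.2e-08), and in A2 differed by −0.44 ± 0.30 (edgeR FDR = 0.307). Gata6 reached 6 to 24 read pairs in A1 (edgeR FDR = 0.000161) and 0 to 5 in A2 (edgeR FDR = 0.563).

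Msx2, a homeobox repressor of limb mesenchyme, was 2.23 to 3.21 CPM in WT and 0.249 to 0.534 CPM in KO (−2.95 ± 0.30, edgeR FDR = 2.59e-08) and was higher than KO in A1 (2.13 ± 0.30, edgeR FDR = 1.11e-05) and A2 (2.16 ± 0.30, edgeR FDR = 1.24e-05). Mef2c, a muscle and endothelial factor, was likewise lower in KO than in WT and higher in both clones than in KO (−0.85 in KO against WT, then 0.89 in A1 and 1.13 in A2 against KO, with edgeR FDR of 0.00222, 0.00302 and 0.000443). Msx1 was lower in KO than in WT (−0.93 ± 0.15) and lower again in A1 (−0.98 ± 0.16) and A2 (−0.92 ± 0.16), all past the edgeR threshold. Foxc2, a forkhead factor, was lower than KO in A1 (−1.67 ± 0.15) and A2 (−1.63 ± 0.15) at edgeR FDR of 3.87e-08 and 6.24e-08.

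Of 7 measured signals known to lie upstream of T-box genes, 5 differed between untreated KO and WT (3 higher, 2 lower; 55.9% of all genes). The growth factor genes Wnt5a (−1.52 ± 0.29, edgeR FDR = 0.000108) and Bmp4 (−1.56 ± 0.24, edgeR FDR = 1.18e-05) were lower in KO. Ptch1, the Hedgehog receptor and target, was higher in KO (146 to 193 against 77.5 to 87.6 CPM; 1.10 ± 0.13, edgeR FDR = 1.59e-07). Bmp2, a ligand known to induce Tbx2 and Tbx3 in several tissues, was higher in KO by 1.31 ± 0.51 (edgeR FDR = 0.0328), with FDR above the threshold when WT replicate 1 (1.08), WT replicate 3 (1.30), KO replicate 2 (1.12) or KO replicate 3 (0.99) was left out, and with the newer quasi-likelihood method. Wnt2b had 1, 1 and 13 read pairs in the KO libraries, and its call (edgeR FDR = 0.0224) was lost without KO replicate 3 (log2 1.22), WT replicate 1 (2.99), WT replicate 3 (3.02) or replicate 1 of every group (3.47), and with unstranded counts (0.02).

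In the clones 5 of these 7 signals differed from untreated KO in A1 (35.3% of all genes) and 6 in A2 (32.3%). Bmp2 was at 25.3 to 43.1 CPM in untreated A1 and 36.4 to 86.1 CPM in untreated A2 against 1.45 to 4.76 in KO (3.33 ± 0.45 and 4.30 ± 0.46, edgeR FDR = 6.87e-06 and 5.5e-07). Wnt5a was at 43.9 ± 7.66 CPM in A1 and 3.94 ± 1.07 CPM in A2 against 1.08 ± 0.262 in KO (SD, n = 3; 5.35 ± 0.28 and 1.87 ± 0.28, edgeR FDR = 2.49e-11 and 3.1e-05). Bmp4 was also higher (2.04 ± 0.24 in A1, 0.99 ± 0.24 in A2). The Hedgehog pathway genes Ptch1 and Gli1 were lower, Ptch1 with −1.88 ± 0.13 in A1 and −0.75 ± 0.12 in A2, and Gli1 with −1.24 ± 0.23 and −1.50 ± 0.24, all at an edgeR FDR under 0.05.

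Of 6 measured genes described as targets of TBX2 or TBX3, 5 differed between untreated KO and WT (3 higher, 2 lower; 55.9% of all genes). Both TBX factors are known repressors of the cell cycle inhibitors Cdkn1a and Cdkn2a. Cdkn1a was lower in KO (−1.14 ± 0.23, edgeR FDR = 0.00021) and lower again in A1 (−1.65 ± 0.24, edgeR FDR = 1.96e-05), while Cdkn2a was higher in KO (0.54 ± 0.15, edgeR FDR = 0.004) and in A1 (0.48 ± 0.15, edgeR FDR = 0.0165, and 0.0603 without A1 replicate 2 or 0.0601 without replicate 3). In untreated A2 neither passed (−0.12 ± 0.23 and 0.20 ± 0.15, edgeR FDR = 0.749 and 0.353), while Cdkn2a was called there when replicate number was a block (0.19, edgeR FDR = 0.0042). With IL-1β Cdkn1a was lower than KO in A1 (−1.92 ± 0.24, edgeR FDR = 2.79e-06) and A2 (−0.79 ± 0.23, edgeR FDR = 0.0112), the latter not past the threshold without treated A2 replicate 1 or treated KO replicate 3. Col1a2, a collagen chain, was at 595 to 912 CPM in WT and 45.0 to 73.4 CPM in KO (−3.63 ± 0.30, edgeR FDR = 1.37e-09) and higher than KO in A1 (1.96 ± 0.28) and A2 (1.02 ± 0.28). Ndrg1, a stress-induced growth suppressor, was higher in KO (1.19 ± 0.14, edgeR FDR = 3.09e-07).

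Of 5 measured genes described as targets of TBX4, TBX5, TBX18 or TBX20, all 5 differed between untreated KO and WT, 4 higher and 1 lower, against 55.9% of all genes. Lef1, a WNT effector, was at 0.183 to 0.290 CPM in WT and 9.81 to 11.7 CPM in KO (5.56 ± 0.35, edgeR FDR = 1.24e-11). Fgf10, the limb and lung mesenchymal ligand that TBX4 and TBX5 are known to control, was at 1.48 ± 0.0180 CPM in WT and 10.3 ± 1.15 CPM in KO (SD, n = 3; log2 difference 2.80 ± 0.24, edgeR FDR = 2.79e-09). Kcnj2, a potassium channel, and Tcf7, a further WNT effector, were higher in KO by 3.74 ± 0.43 and 1.93 ± 0.12 (edgeR FDR = 1.62e-07 and 9.74e-12). Nppb, a natriuretic peptide, was lower (17 to 37 read pairs in WT, 0 to 4 in KO; edgeR FDR = 0.000132).

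In the clones Tcf7 was higher than KO by 0.77 ± 0.11 and 0.74 ± 0.11, and Fgf10 by 0.87 ± 0.21 in A1 and 0.60 ± 0.21 in A2 (edgeR FDR = 0.00245 and 0.0325, the latter 0.219 without A2 replicate 2, 0.102 without KO replicate 3, 0.0527 without KO replicate 1 and 0.0738 with the compared groups alone). Without IL-1β, Kcnj2 was lower than KO in A2 (−2.14 ± 0.38, edgeR FDR = 0.000174), while A1 differed from KO by −0.11 ± 0.35 (edgeR FDR = 0.845). With IL-1β it was lower in A2 (−1.38 ± 0.37, edgeR FDR = 0.00641) and higher in A1 (1.14 ± 0.35, edgeR FDR = 0.015), the latter not past the threshold without treated KO replicate 1.

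**Figure D3:**
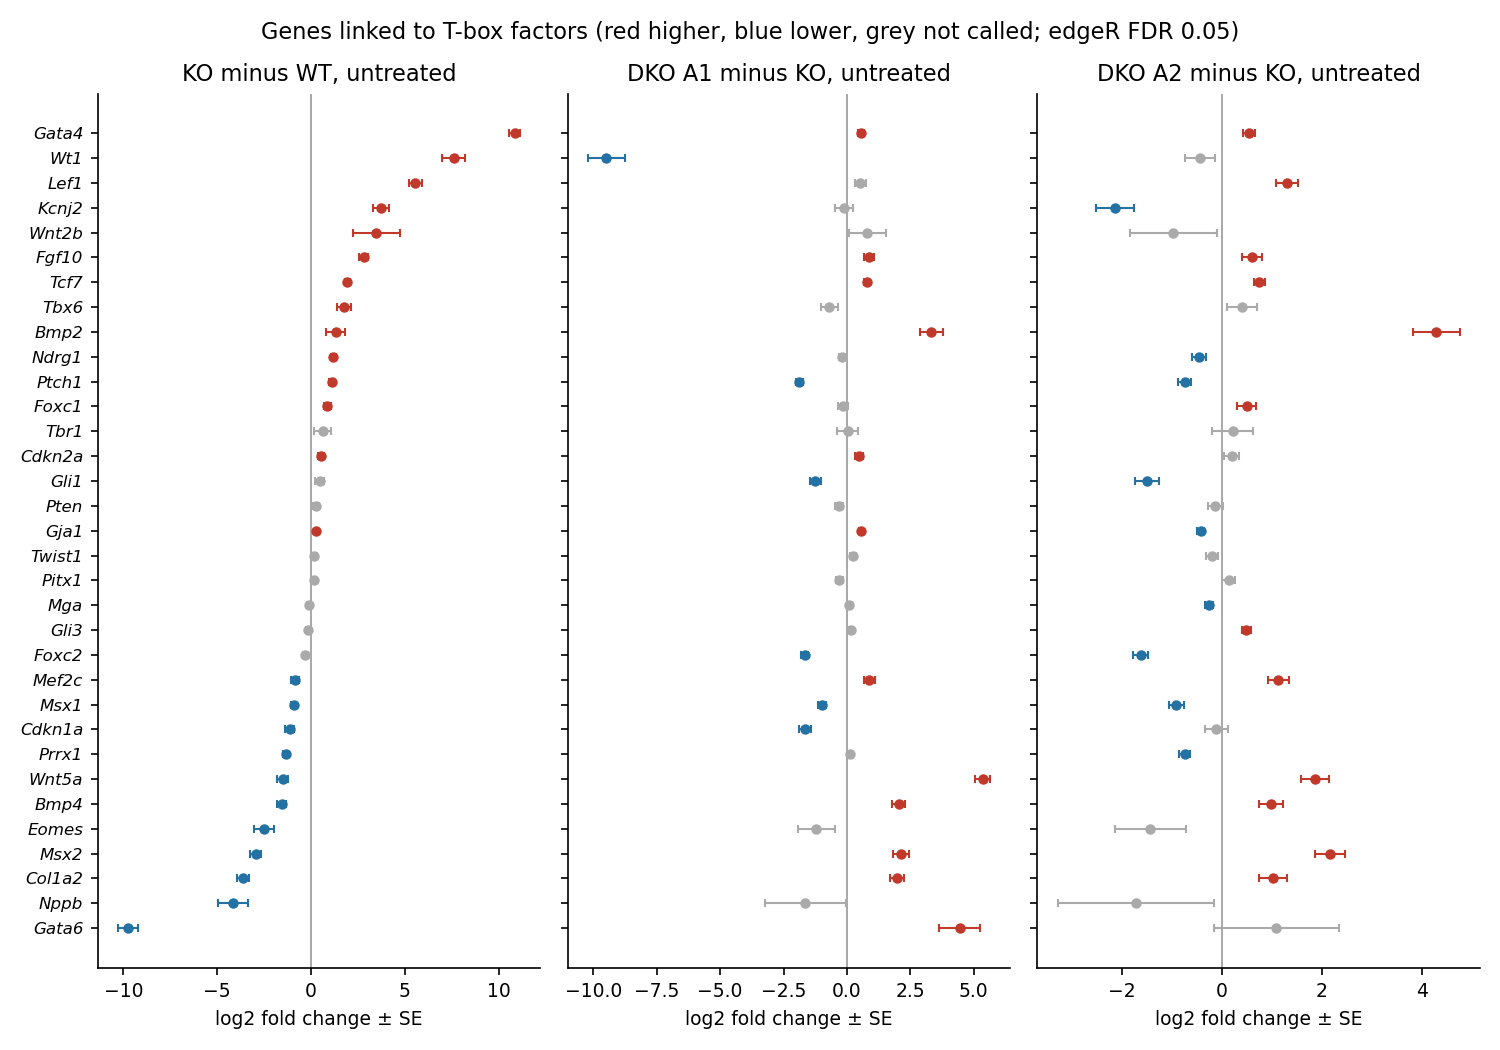
Log2 fold change ± SE (x axes, each with its own range) of the 33 measured genes linked to T-box factors in untreated KO against WT and in clones A1 and A2 against KO, 3 libraries against 3, ordered by the first panel; red and blue mark an edgeR FDR under 0.05. Of these, 14 were higher and 11 lower in KO, and the outermost values (Gata4, Wt1, Gata6) are fitted against groups with next to no reads and are not measured folds.

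Markers of some other cell types also differed between the genotypes. The summed level of 5 smooth muscle and pericyte markers was 185 to 202 CPM in untreated WT, 18.1 to 21.0 in KO, 2.40 to 2.68 in A1 and 2.44 to 4.25 in A2 libraries, with 4 of the 5 past the filter and none at 0. That of 4 mesothelial and epicardial markers was at least 34.1 CPM in untreated WT and 1.83 to 2.99 CPM in KO libraries, with 1 of 4 past the filter and Lrrn4 and Upk1b at 0 in both. The summed cardiomyocyte markers, 2 of 6 past the filter, were at 2.30 to 3.71 CPM in untreated WT (Myh6 and Ryr2 at 0) and 0.690 to 1.25 CPM in KO (Myh6, Myh7 and Actn2 at 0), without overlap and opposite in direction to Tbx20. The part of these markers in the differences of the T-box genes and of Gata4, Gata6, Wt1 and Col1a2 was not tested. Fewer cells of a type and less RNA per cell cannot be told apart in such bulk samples.

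For IL-1β fewer genes passed than between genotypes, among the linked genes as among all genes. By edgeR, 2 of 33 passed in WT (Ndrg1 higher, Gli1 lower), 5 in KO (Ndrg1, Nppb and Prrx1 higher, Gja1 and Pitx1 lower), 0 in A1 (11 at an unadjusted p under 0.05, and 2 by DESeq2) and 7 in A2 (Ndrg1 and Prrx1 higher, Bmp2, Gja1, Mef2c, Pitx1 and Twist1 lower). These counts are 6.06% of the linked genes in WT, 15.2% in KO, 0% in A1 and 21.2% in A2. Of all genes 2.26% passed in WT, 4.74% in KO, 1.99% in A1 and 5.68% in A2. Blocking on replicate number gave counts of 9, 13, 11 and 12, beside 1629, 2601, 1684 and 3133 of all 17522 genes. Ndrg1, which TBX2 is known to repress, was higher after IL-1β by 0.54 in WT, 0.63 in KO and 0.54 in A2 (edgeR FDR = 0.0431, 0.00725 and 0.0213) and differed by 0.43 in A1 (edgeR FDR = 0.158, and 0.000258 with the block). The limb mesenchyme factor Prrx1 was higher by 0.78 in KO (edgeR FDR = 6.8e-05) and 0.45 in A2 (edgeR FDR = 0.0136). It did not pass in WT (edgeR FDR = 0.282) or A1 (edgeR FDR = 0.0805). With the block it was called higher there too (0.27 in WT, edgeR FDR = 0.0336, and 0.38 in A1, edgeR FDR = 0.00343). Single libraries decided several of these calls: the count in WT was 0 without IL-1β replicate 1, untreated replicate 2 or IL-1β replicate 2 and 1 without any other WT library, and that in KO was 3 without IL-1β replicate 1 or untreated replicate 2.

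The genes with the most similar profile to Tbx3 were chosen by the root mean square difference of group mean log2 CPM, each centred on its own mean, over 8 groups and among 12662 genes. They were the mitophagy receptor Bnip3 (0.25), the sterol regulator Insig2 (0.29), the mesenchymal factor Twist2 (0.31), the ferritin chain Fth1 (0.31) and H2-T10, listed as a polymorphic pseudogene of the major histocompatibility complex (0.33). As they were picked for this pattern, their values are a description. Insig2, for example, was at 31.8 to 34.4 CPM in untreated and 50.3 to 67.0 CPM in treated KO cells, against 24.1 to 31.8 and 28.8 to 32.3 CPM in WT. Twist2, the only other developmental transcription factor among them, was at 24.9 to 28.6 and 42.1 to 48.1 CPM in KO and at 18.0 to 19.5 and 20.6 to 23.0 CPM in WT. With the difference taken over the 24 libraries instead of group means, 3 of these 5 genes were again among the 5 nearest.

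**Figure D4:**
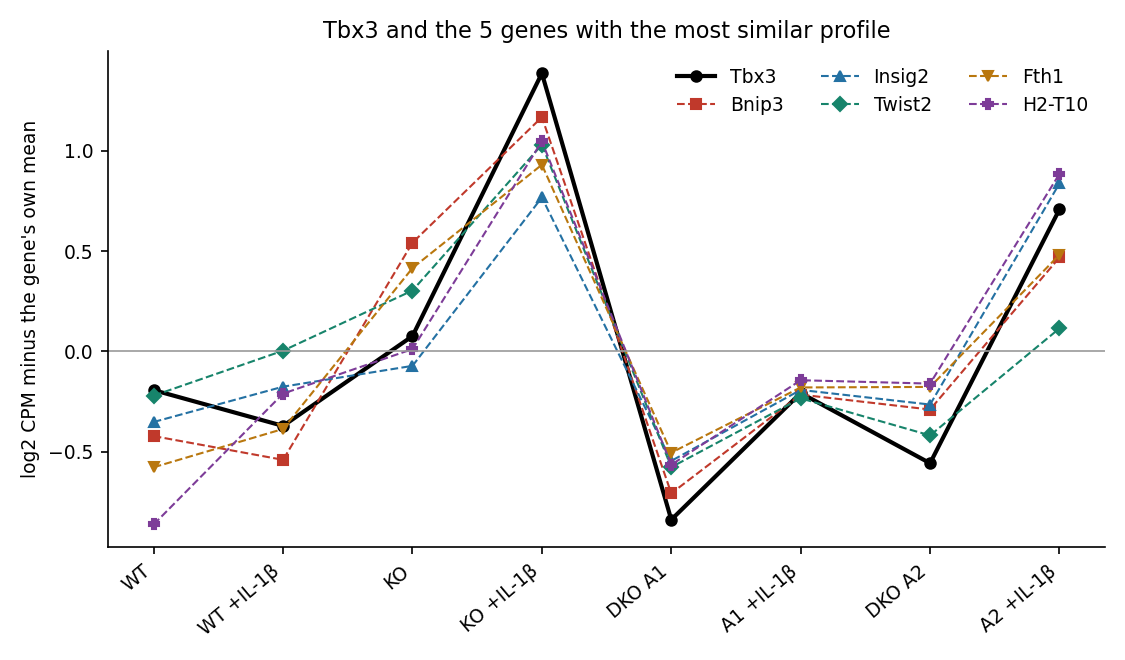
Group mean log2 CPM minus each gene's own mean over 8 groups (y axis) for Tbx3 and the 5 genes with the most similar profile; lines join groups for reading only. Tbx3 spans −0.84 in untreated A1 to 1.39 in KO with IL-1β, and H2-T10 lies furthest from it in untreated WT.

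For the other members the nearest profiles were Rasal2 for Tbx15 (0.05), 1700008J07Rik for Tbx18 (0.12) and Cul9 for Tbx20 (0.36). The cullin gene Cul9 was at 0.0522 to 0.299 CPM in untreated WT, 1.67 to 2.24 in KO, 3.89 to 4.27 in A1 and 0.370 to 0.969 in A2 libraries, the order of Tbx20. Rasal2, a regulator of RAS, was at 146 to 160 CPM in untreated WT and 116 to 128 in KO libraries.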

How the data were processed

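RNA was sequenced as 50-base read pairs from 24 MEF libraries. The authors trimmed reads with Trim Galore 0.6.0, aligned them with STAR 2.7.8a to GRCm38 and deposited read counts per gene from STAR. The labels and the study's methods name different library kits. The second-strand count column was used. Gene names came from GENCODE M21 and were found for 55144 of 55471 identifiers. Counts were filtered with filterByExpr (minimum 10, total 15), scaled by TMM and fitted with edgeR 4.0.16 (quasi-likelihood test, R 4.3.3) over all 24 libraries with 1 term per group; p-values were adjusted by Benjamini-Hochberg over 17522 genes. The fit was tested on simulated data. The members and gene lists were chosen with earlier results of these data known. All members are named, with up to 4 called genes of each list by size of the KO to WT difference, those called alike in both clones, measured neighbours within 200 kb, and the nearest profiles (mean log2 CPM over 0, pseudocount 0.1 CPM). Model intervals are 95% intervals. Alternatives covered unstranded counts, DESeq2 1.42.0 and its size factors, upper quartile scaling, other filters, the replicate block, fits of the compared groups alone and leaving out libraries.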

Additional observations from a re-analysis of the deposited data

Results flagged for a closer look

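The IL-1β response of Tbx3 differed between KO and WT cells by 1.49 on the log2 scale. It was picked out because every treated KO library lay above, and every treated WT library below, the untreated ones. The value is a description, since Tbx3 was chosen with its levels known. The count of T-box genes past the edgeR threshold given above covers this contrast, and nothing is read from that count.

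Gja1, which encodes a gap junction protein and is described as a target of TBX2 and TBX3, had a response that differed between KO and WT by −0.47 (edgeR FDR = 0.026). It was at 386 to 424 CPM without and 440 to 465 CPM with IL-1β in WT, and at 454 to 494 and 361 to 410 CPM in KO cells. The FDR ranged from 0.000125 to 0.0941 over the alternatives, and it was over 0.05 with unstranded counts (−0.45) and when WT untreated replicate 2 (−0.45) or 3 (−0.42), WT IL-1β replicate 1 (−0.45) or 2 (−0.46), KO untreated replicate 2 (−0.46) or 3 (−0.42), or KO IL-1β replicate 1 (−0.41) was left out.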

How the results depend on the processing

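No called value changed sign under the alternatives listed in the methods. Omitting replicate 1 of every group was chosen after seeing the data. Counts of called T-box genes are of 4, but of 3 with at least 10 counts in every library, where Tbx20 is not tested, and of 7 with no filter. Without replicate 1 of every group the count was 4 for A1 against untreated KO (from 2), 2 for the A1 response (from 1), 1 for the untreated clones (from 2) and 0 for the response of A1 against KO (from 1). In the same order, 7025 (from 6181), 899 (from 348), 7097 (from 5692) and 10 (from 5) of all genes then passed. The A2 response (2) and the untreated clones (2) gave 1 with the compared groups alone, and the latter also with at least 10 counts in every library, where Tbx20 was no longer tested. Of all genes, the compared groups alone gave 246 (from 995) and 4438 (from 5692). At least 10 counts in every library gave 5305 for the untreated clones. The count for the response of A1 against KO (1) was 0 with upper quartile scaling and with the compared groups alone, where 3 and 4 of all genes passed (from 5). The fitted Tbx3 difference was −0.77 to −0.62 over all settings. Leaving out single libraries gave 1 to 2 for the A2 response (1 without IL-1β replicate 1 or 3 or untreated replicate 2 or 3) and the untreated clones (1 without A1 replicate 1), and 0 to 1 for the response of A1 against KO (1 only without untreated A1 replicate 1 or treated A1 replicate 3).

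Counts of called linked genes are of 33, but of 24 with at least 10 counts in every library (the strict filter) and of 55 with no filter, so these do not count the same genes. For KO against WT with IL-1β it was 26, and 17 with at least 10 counts in every library, beside 10050 and 7999 of all genes. The WT response (2) gave 1 with unstranded counts or DESeq2 size factors, 6 with no filter, 9 with the replicate block, 0 with the compared groups alone and 5 without replicate 1 of every group. Of all genes, unstranded counts gave 349, DESeq2 size factors 413 and the compared groups alone 375 (from 396). The KO response (5) gave 13 with no filter or the block and 12 without replicate 1. The A1 response (0) gave 4 with upper quartile scaling or the compared groups alone, 9 with no filter, 2 with the strict filter or DESeq2, 1 with the newer quasi-likelihood method, 11 with the block and 6 without replicate 1. Of all genes, upper quartile scaling gave 500, the compared groups alone 471, the strict filter 387 and the newer method 404 (from 348). The A2 response (7) gave 11 with no filter, 12 with the block, 1 with the compared groups alone and 13 without replicate 1. The response of KO against WT (1) gave 0 with unstranded counts (32 of all genes, from 43), 4 with no filter, 3 with the block and 2 without replicate 1. That of A1 against KO (0) gave 2 with no filter. Leaving out single libraries gave 0 to 1 in WT, 3 to 6 in KO, 0 to 1 in A1 and 0 to 1 for the response of KO against WT. The causes were not tested.

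Over all genes, the replicate block raised the calls of the response from 396 to 1629 in WT, 831 to 2601 in KO, 348 to 1684 in A1 and 995 to 3133 in A2, with a block count of 2 for the T-box genes in A1 (from 1), and omitting replicate 1 gave 921, 1534, 899 and 2556. No filter gave 954, 1428, 908 and 1643, DESeq2 624 in WT and 573 in A1, and the compared groups alone 246 in A2. For the response of KO against WT (43) the count was 311 with the block, 347 with no filter, 147 without replicate 1, 121 with DESeq2, 76 with upper quartile scaling and 70 with the strict filter or the compared groups alone. For that of A1 against KO (5) it was 36, 141, 10, 12 and 3 in the same order, 3 with unstranded counts as well. The response of A2 against KO gave 0 calls by edgeR, with 388 genes at an unadjusted p under 0.05. The labels do not say what a replicate number shares. Libraries of the same number correlated at 0.24 to 0.82 in their deviations over 9369 genes with mean log2 CPM over 3 and at 0.036 to 0.59 over all tested genes, where 69 of 84 pairs exceeded 0.1 and 23 of 24 libraries lay closest to their own number. Upper quartile scaling shifted the median of all genes by 0.10 for KO against WT with IL-1β. Depth limits Tbx2, Tbx4, Tbx5 and Tbx20 in WT, which rest on 0 to 7 read pairs in a library.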
